A study of Saccharomyces cerevisiae with 6 samples.

Results

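The 81 open reading frames described here are yeast genes that still carry only a systematic name and whose deposited array signal differed at least 2-fold between a strain lacking BAS1 and wild type. They were chosen from 508 probe sets whose single S. cerevisiae symbol is such a name, among 5498 probe sets with 1 S. cerevisiae gene and 10928 on the array. The rule asked for a difference of group mean log2 intensity of 1 or more, for all 3 arrays of either strain to lie above all 3 of the other, and for the higher mean to be 7 or more. The strain difference therefore chose the members, so it is given for them as a description and without a test. Of the 81 probe sets, each for a different gene, 69 were higher and 12 were lower in the deletion strain.

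The samples were 3 of a BAS1 deletion mutant and 3 of FY4, the wild-type strain it is compared with. Per the labels, both strains were in exponential batch growth, in minimal medium whose carbon source was glucose. Bas1 is a DNA-binding activator of the Myb type, whose best known targets make purines and histidine. Biotin-labelled cRNA made from total RNA was read on Affymetrix arrays, which carry a set of probes per gene. Levels are log2 of the deposited intensity, and differences are deletion minus wild type. Precision is limited by having 3 arrays a strain. Whether replicates came from different cultures is not in the labels, so a p-value here reflects only how these samples spread, which may be technical.

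A systematic name is an address: it gives the chromosome, the arm, the order of the gene along the arm and the strand, W or C. Genes lose that name in daily use when a function earns them a standard one, so an unnamed reading frame is usually one whose role is unknown, or known mainly from its resemblance to other proteins. A letter suffix such as -A marks a reading frame added after the first numbering, usually a short one lying between genes that already had numbers.

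The deleted gene was read first. BAS1 stood at 4.83 ± 0.06 in the deletion strain and at 11.09 ± 0.12 in wild type (SD, n = 3 each), and all 3 deletion values lay under the background level. The background was read from the 1746 probe sets whose gene is not in the S. cerevisiae table: their 95th percentile, taken as 6.09, or as that of the single array if this was larger. The level so set was 6.12, 6.09 and 6.09 in the deletion arrays and 6.60, 6.22 and 6.51 in the wild-type arrays. It was thus higher in every wild-type array. Where a group's mean lies under it, a fold is given as at least the value against the background. On the same arrays, each of the 16 controls for the yeast's 18S and 25S rRNA was lower on average in the deletion strain, by a median difference of -3.09. A control for the 5.8S rRNA differed by -0.43. The part of these controls in the results below was not tested. The median over all 5498 probe sets ran from 11.10 to 11.14 in the deletion arrays and from 10.94 to 10.997 in the wild-type arrays.

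Among the unnamed probe sets, the 69 higher ones made up 13.6% and the 12 lower ones 2.36%. The same thresholds were met by 7.60% of the 4990 probe sets with a standard name as higher and by 0.902% as lower, and over all 5498 by 8.15% and 1.04%. Nothing is read from these shares, since the rule used this contrast. The balance of directions moved with the scaling of the arrays. The 3 scalings below started from the deposited intensities and were run on the 5498 probe sets alone, not on all 10928. After each array was centred on its median, which lowered every difference by 0.16, 51 probe sets met the rule as higher and 15 as lower. Cyclic loess gave 49 and 19, and quantile normalization, which lowered the members' differences by a median of 0.48, gave 32 and 46. Every higher probe set under these 3 scalings was among the 69, and all 12 lower ones were met each time. The lower side thus grew by probe sets that were not among the 12.

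Of the 508 unnamed probe sets, 425 reached a level of 7 in either strain. A difference of 1 or more in either direction was found for 94, in each of which the strains did not overlap, and 13 of these were left out by the level alone. Over all 5498 probe sets such a difference was met by 8.38% as higher and 1.15% as lower. The members nearest the difference threshold were YNL146W at 1.004 and YOR316C-A at -1.06, and the nearest outside it were YLL053C at 0.99 and YNL067W-B at -0.95. At the level threshold, YHR213W had a mean of 7.13 in the deletion strain and was kept, and YPR078C had a mean of 6.96 there and was not. YBL044W was left out as well, with a wild-type mean of 6.82. The narrowest gap between strains among the members was 0.23, for YGR174W-A.

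**Figure D1:**
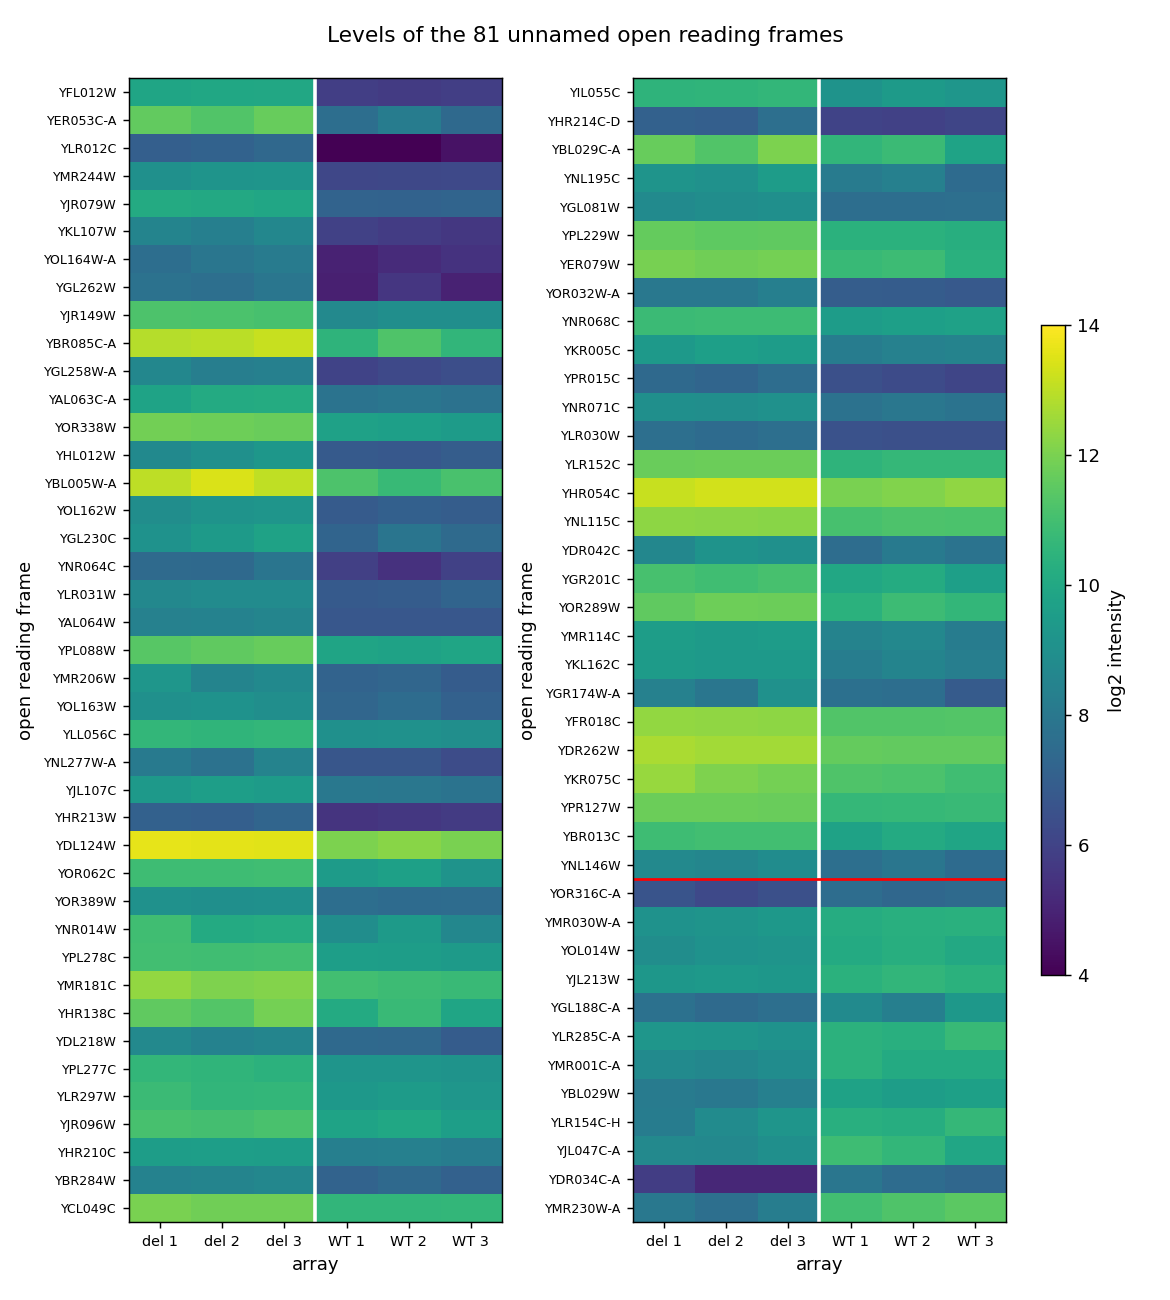
Log2 intensity of the 81 unnamed open reading frames (rows, ordered from the largest positive to the largest negative difference, left panel first) on the 3 BAS1 deletion arrays and the 3 wild-type arrays (columns). The red line separates the 69 higher reading frames from the 12 lower ones, which fill the bottom of the right panel.

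**Figure D2:**
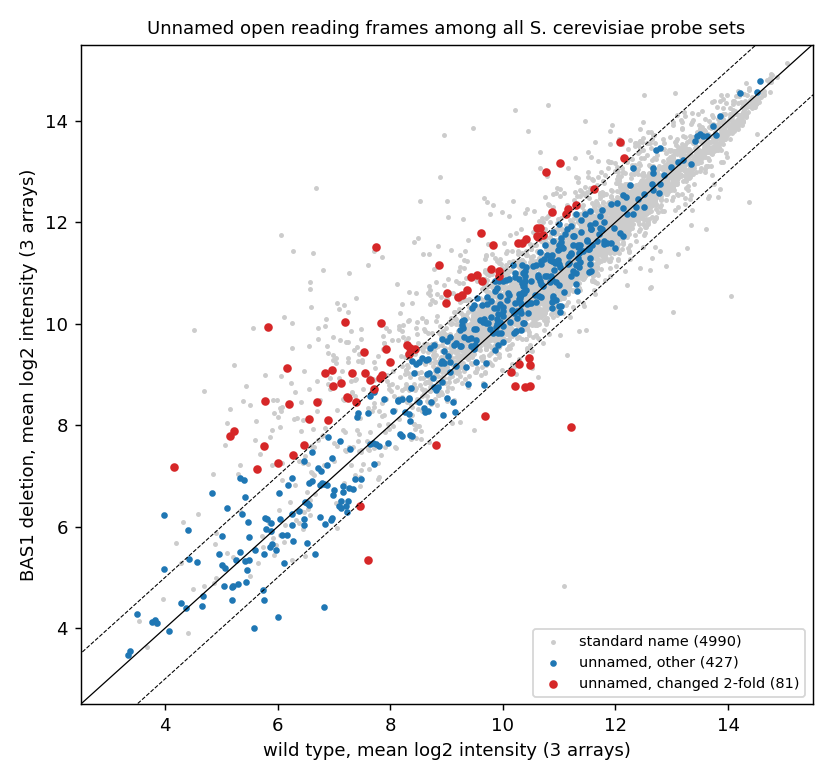
Mean log2 intensity in the BAS1 deletion strain (vertical axis) against wild type (horizontal axis), each over 3 arrays, for 5498 S. cerevisiae probe sets. The solid line marks equal levels and the dashed lines a difference of 1 in either direction. The 81 members (red) lie beyond the dashed lines by choice, 69 above and 12 below.

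The median level of the higher members was 9.93 in the deletion strain and 8.29 in wild type. The unnamed probe sets that are not members had a median of 10.10 in the deletion strain and 9.90 in wild type. Nothing is read from these levels, since the rule asked for a lower wild-type mean and levels of different probes are not comparable. The median difference of the higher members was 1.32. In 41 of the 69 the difference was under 1.5, in 12 it was from 1.5 to 2, and in 16 it was 2 or more. In 11 of the 69 the wild-type mean lay under background, so their fold is a bound. For 4 of the 16, YLR012C, YOL164W-A, YGL262W and YGL258W-A, that bound is under 4-fold.

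The largest difference belonged to YFL012W, a reading frame with no assigned role. Its level was 9.88, 9.95 and 9.98 in the deletion arrays, against 5.85, 5.75 and 5.87 in the wild-type arrays, all 3 of them under background. It was at least 11.2-fold higher, on a difference of 4.11. YER053C-A encodes a very short protein and was well above background in both strains. It stood at 11.60, 11.27 and 11.66 in the deletion arrays, against 7.63, 8.20 and 7.43 in the wild-type arrays, 13.5-fold higher. The lowest deletion array thus lay more than 3 log2 units above the highest wild-type array. YMR244W, of unknown role, read 9.002, 9.18 and 9.22 in the deletion arrays and 6.11, 6.18 and 6.22 in the wild-type arrays, at least 6.46-fold higher.

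YLR012C had the third largest difference, 3.02, but the least signal of the leading members. Its deletion arrays read 7.01, 7.13 and 7.38 and its wild-type arrays 3.94, 4.04 and 4.49. Against the background that is at least 1.66-fold. Likewise the differences of YOL164W-A (2.67) and YGL262W (2.64) come down to at least 2.73-fold and at least 2.53-fold, because both were under background in all 3 wild-type arrays. YBR085C-A, in contrast, was among the brightest members, at 12.87, 12.95 and 13.15 in the deletion arrays and 10.51, 11.24 and 10.57 in the wild-type arrays, 4.65-fold higher. Wild-type replicate 2 was the highest of its strain there, as it was in 35 of the 69 higher members (50.7%). That held for 39.9% of the probe sets that are not members. Within the deletion strain, replicate 2 was the highest array in 11 of the 69 (15.9%), against 46.8% of the probe sets that are not members. The sets were not matched for level, and the source of these differences was not tested.

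Resemblance to known enzymes is the nearest thing to a role for some of the higher members. The families below were picked with the members known, so they describe the members and do not stand apart from other families. Members of the aldo-keto reductases, which reduce aldehydes and ketones with NADPH, numbered 4. YDL124W, a keto-amide reductase, had the highest level of all members, with 13.63, 13.59 and 13.55 in the deletion arrays against 12.04, 12.21 and 12.004 in the wild-type arrays, 2.84-fold higher. YPL088W, a putative aryl-alcohol dehydrogenase, read 11.42, 11.58 and 11.66 in the deletion arrays and 9.83, 9.75 and 9.87 in the wild-type arrays, 3.33-fold higher. The strains were separated in both genes by far more than the replicates of either strain. YJR096W was 2.45-fold higher and YPR127W, which resembles pyridoxal reductases, 2.04-fold higher.

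Other members resemble oxidoreductases and hydrolases. YJR149W, which resembles nitronate monooxygenases, stood at 11.20, 11.18 and 11.11 in the deletion arrays and at 8.70, 8.96 and 8.95 in the wild-type arrays, 4.90-fold higher. YKL107W, of the short-chain dehydrogenase family, read 8.50, 8.32 and 8.61 in the deletion arrays and 5.95, 5.76 and 5.63 in the wild-type arrays, all under background, at least 4.09-fold higher. YNR064C, an epoxide hydrolase, was also under background in wild type and at least 2.21-fold higher. YLL056C, whose sequence has an NAD(P)-binding fold, was 3.01-fold higher.

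YBR284W is a relative of AMP deaminase, the enzyme that turns AMP into IMP. It is the longest of the members, at 2394 bases. It read 8.45, 8.52 and 8.62 in the deletion arrays and 7.19, 7.41 and 7.12 in the wild-type arrays, 2.45-fold higher. YHL012W, a relative of the UDP-glucose pyrophosphorylase gene UGP1, stood at 8.74, 9.02 and 9.31 in the deletion arrays and at 6.83, 6.75 and 6.96 in the wild-type arrays, 4.51-fold higher. YFR018C, which resembles glutaminyl cyclases, was 2.05-fold higher, and YHR138C, a relative of the proteinase B inhibitor gene PBI2, 2.52-fold. In YHR138C the wild-type arrays spread from 9.88 to 10.77, again with replicate 2 on top.

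Several related pairs had both copies among the members. These pairs too were picked from background knowledge after the members were known, and nothing is read from their number. YMR181C and YPL229W, duplicates of unknown role, read 12.39, 12.09 and 12.16 and 11.66, 11.53 and 11.58 in the deletion arrays, against 10.95, 10.87 and 10.80 and 10.38, 10.40 and 10.27 in the wild-type arrays. Their differences were 1.34 and 1.24. YKR075C and YOR062C both resemble Reg1, a phosphatase subunit of glucose repression, and were 2.04-fold and 2.796-fold higher. For YKR075C the deletion arrays ran from 11.92 to 12.47 and the wild-type arrays from 10.93 to 11.26, a gap of less than 1 log2 unit. For YOR062C they ran from 10.90 to 10.94 and from 9.14 to 9.69.

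The duplicates YMR206W and YNR014W were 3.28-fold and 2.67-fold higher. Deletion replicate 1 was the highest array of that strain in both, at 9.26 against 8.51 and 8.75 in YMR206W and at 10.94 against 10.12 and 10.19 in YNR014W. YHR210C and YNR071C, relatives of aldose 1-epimerases, were 2.45-fold and 2.21-fold higher. YPL277C and YOR389W, which resemble each other and lie near the ends of different chromosomes, were 2.49-fold and 2.78-fold higher. YPL277C was read by a probe set that matches several transcripts. A second YPL277C probe set, dimmer and not a member, averaged 6.67 in the deletion strain and 6.02 in wild type, so the level of this gene by itself is uncertain.

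**Figure D3:**
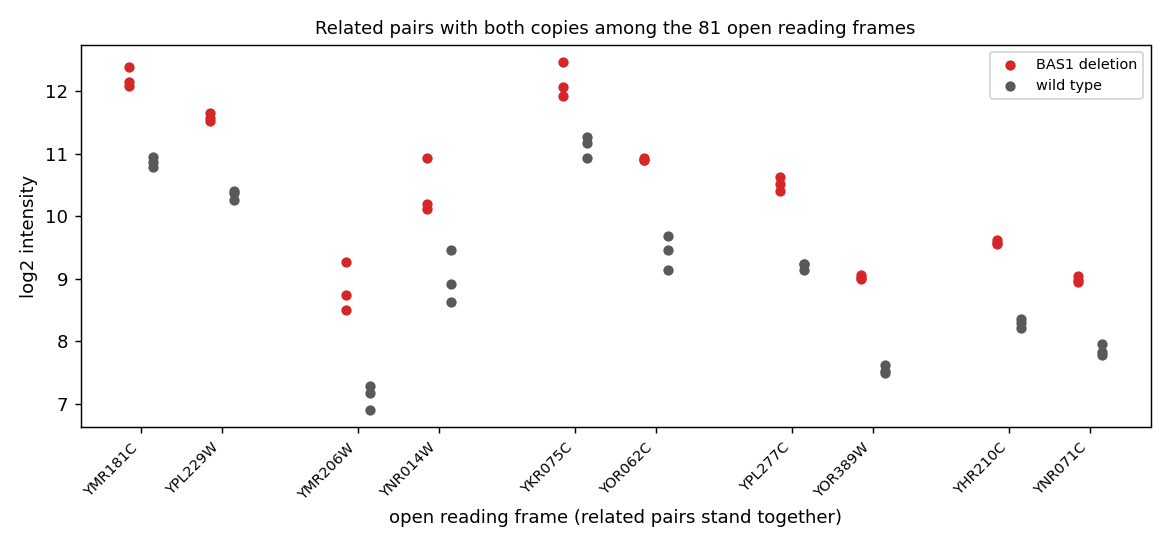
Log2 intensity of 10 members that form 5 related pairs, with 1 point per array: BAS1 deletion (red, left of each pair of columns) and wild type (grey, right). In each gene the 3 deletion arrays lie above the 3 wild-type arrays, as the choice of members requires, and the differences run from 1.03 in YKR075C to 1.71 in YMR206W.

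Some members lay next to each other or close to a chromosome end. Of the 69 higher members, 12 (17.4%) were among the 10 protein-coding genes nearest an end, as was 1 of the 12 lower ones (8.33%). The share was 13.3% in the unnamed probe sets that are not members, 3.55% in those with a standard name and 4.49% over all 5498. Position was not used by the rule. In the gene order of RefSeq (assembly R64), 5 pairs of members were direct neighbours among genes with a probe set. They were YOL162W and YOL163W, YLR030W and YLR031W, YAL063C-A and YAL064W, YPL277C and YPL278C, and YBL029W and YBL029C-A. No such count was made for other probe sets, so nothing is read from the number of pairs.

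YOL162W and YOL163W encode relatives of Dal5, a permease of allantoate. YOL162W read 8.90, 9.15 and 9.23 in the deletion arrays and 6.88, 7.06 and 6.96 in the wild-type arrays, 4.37-fold higher, and YOL163W was 3.26-fold higher. Past YOL163W come BDS1, the gene of a sulfatase, and YOL164W-A, so 4 neighbouring genes at this end of chromosome XV were higher. BDS1 is not a member and rose. It stood at 11.24 ± 0.13 in the deletion strain and 9.36 ± 0.11 in wild type (SD, n = 3 each), a difference of 1.88 with a standard error of 0.09 and a limma adjusted p of 1.5e-05. At the end of chromosome I, YAL063C-A and YAL064W were 4.56-fold and 3.36-fold higher. On chromosome XII, YLR030W was 2.20-fold and YLR031W 3.45-fold higher.

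The fifth pair was split. YBL029W and YBL029C-A lie head to head on chromosome II with no other gene of the table between them. YBL029W read 8.17, 8.01 and 8.36 in the deletion arrays and 9.77, 9.58 and 9.69 in the wild-type arrays, 2.83-fold lower. YBL029C-A read 11.67, 11.28 and 12.04 in the deletion arrays and 10.58, 10.83 and 9.80 in the wild-type arrays, 2.39-fold higher. The arrays of YBL029C-A spread widely within both strains, and the gap between them was 0.45.

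Of the other large differences, YGL258W-A and YOR338W were at 2.20 and 2.18. YGL258W-A was under background in wild type and at least 3.91-fold higher. YOR338W, the duplicate of FUN19, read 11.86, 11.81 and 11.71 in the deletion arrays and 9.74, 9.63 and 9.48 in the wild-type arrays, 4.52-fold higher. YBL005W-A is the Gag gene of a Ty1 transposon and was 4.41-fold higher, at 12.99, 13.44 and 13.06 in the deletion arrays and 11.21, 10.75 and 11.11 in the wild-type arrays. YGL230C and YNL277W-A, of unknown role, were 3.73-fold and 2.99-fold higher. The probe set of YBL005W-A matches several transcripts, so its value cannot be tied to 1 Ty1 copy. YGR174W-A, the shortest member at 87 bases, was also read by a probe set of that kind, at 8.38, 7.91 and 9.06 in the deletion arrays and 7.68, 7.60 and 6.88 in the wild-type arrays. A second probe set of YGR174W-A averaged 5.46 in the deletion strain and 4.96 in wild type, under background in both, so the 2.09-fold difference rests on the first alone. The remaining probe sets of that kind belong to YHR054C, which lies in the CUP1 repeat and was 2.15-fold higher, to YPL277C and YPL278C, and to YLR154C-H among the lower members.

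The 12 lower members differed from the higher ones in length and name. Their median level was 8.76 in the deletion strain and 10.25 in wild type. A letter suffix is carried by 9 of the 12 (75.0%), against 11 of the 69 higher members (15.9%). Such names made up 30.0% of the unnamed probe sets that are not members and 4.69% of all 5498 probe sets. The median annotated length was 199.5 bases in the lower members and 807 bases in the higher ones, and 711 bases in the unnamed probe sets that are not members. Under 300 bases long were 75.0% of the lower members, 15.9% of the higher ones, 25.8% of the other unnamed probe sets and 2.26% of those with a standard name. The 223 probe sets for genes under 300 bases that are not members had a median difference of 0.14, against 0.11 in the 5194 for longer genes. A positive difference of 1 or more was found for 25 of the short ones (11.2%) and 367 of the longer ones (7.07%), and a negative one for 5 (2.24%) and 46 (0.886%). The rule took unnamed probe sets with such a difference out of both sets, and 110 of the 223 short ones were unnamed. These shares are thus lowered by the choice of members, and nothing is read from them.

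**Figure D4:**
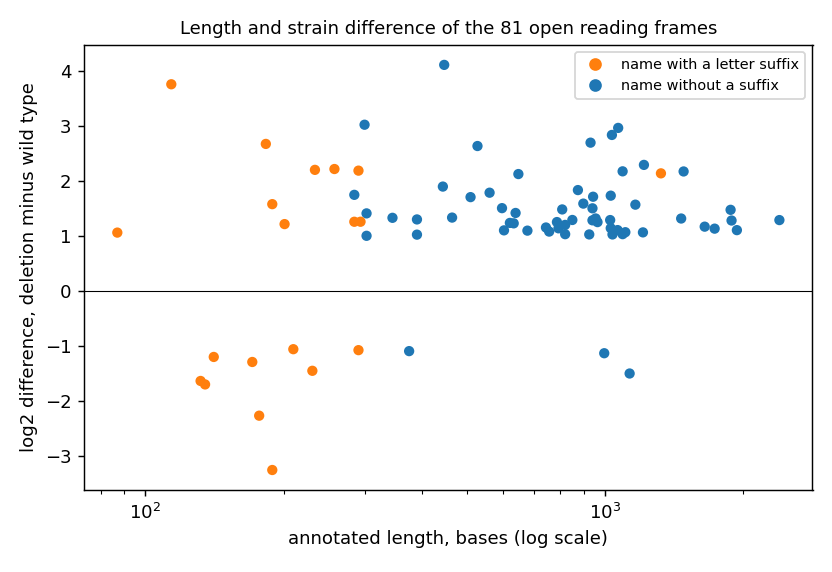
Difference of mean log2 intensity, deletion minus wild type, against annotated length in bases (log scale) for the 81 members. Orange points carry a letter suffix in their name and blue points do not. Of the 12 points below 0, 9 are orange and shorter than 300 bases.

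YMR230W-A had the largest negative difference. It stood at 8.02, 7.65 and 8.23 in the deletion arrays, against 10.96, 11.23 and 11.47 in the wild-type arrays, 9.53-fold lower on a difference of -3.25. YDR034C-A read 5.83, 5.10 and 5.10 in the deletion arrays, all under background, and 7.94, 7.55 and 7.35 in the wild-type arrays, at least 2.85-fold lower. In both the strains were well apart, while the third, YJL047C-A, varied more: it read 8.70, 8.65 and 8.997 in the deletion arrays and 10.88, 10.63 and 9.92 in the wild-type arrays, 3.24-fold lower. YJL047C-A shares 49 bases and the strand with SNR60, a small nucleolar RNA gene.

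YLR154C-H is a 132-base reading frame in the ribosomal DNA region, and 105 of its bases lie over the 5S rRNA gene RDN5-2 on the opposite strand. RefSeq lists 4 reading frames of this length over 5S genes, of which YLR154C-H is the one named for a probe set, and that probe set matches several transcripts. It read 8.20, 8.84 and 9.23 in the deletion arrays and 10.30, 10.23 and 10.65 in the wild-type arrays, 3.10-fold lower. The 18S and 25S controls were lower in the deletion strain too, with a median per array of 10.02, 11.03 and 10.42 in the deletion arrays and 13.67, 13.52 and 13.69 in the wild-type arrays. The 5.8S control differed by only -0.43. The part of these controls in the difference of YLR154C-H was not tested. The next gene on its strand, ASP3-1, which encodes an asparaginase, differed by -0.05 (limma adjusted p = 0.47).

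The other lower members differed less. YMR001C-A was 2.73-fold lower, YLR285C-A 2.44-fold, YGL188C-A 2.29-fold, YOL014W 2.13-fold, YMR030W-A 2.11-fold and YOR316C-A 2.08-fold, all of unknown role. YJL213W, of the amidohydrolase family, is with YBL029W and YOL014W one of the 3 without a suffix. It read 9.28, 9.41 and 9.29 in the deletion arrays and 10.40, 10.58 and 10.39 in the wild-type arrays, 2.19-fold lower.

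The genes beside the members were not chosen by the rule, so they could be tested. For each member, the nearest gene with a probe set on either side was taken from the RefSeq order, members were left out, and limma's test over all 5498 probe sets was read at an adjusted p under 0.05. Limma called 39.5% of all probe sets higher, 20% lower and 59.5% in either direction. Of the 125 neighbours of higher members, 71 (56.8%) rose and 18 (14.4%) fell. After array centring 49 of the 125 (39.2%) rose and 24 (19.2%) fell, where 27.0% of all probe sets rose and 33.4% fell. Quantile normalization gave 47 (37.6%) and 30 (24.0%), with 24.9% and 35.4% of all probe sets. A positive difference of 1 or more was found for 25 of the 125 neighbours and a negative one of that size for none, against 392 (7.24%) and 51 (0.941%) of the 5417 probe sets that are not members. These counts use the measured difference, without the background bound. Wild type lay under background in 4 of the 25, of which FDH1 has a bound under 2-fold. Without the members among the 10 genes nearest a chromosome end, 20 of 110 neighbours (18.2%) had a positive difference of 1 or more, against 6.85% of the probe sets that are neither members nor near an end. The 110 were cut by the place of the member and not of the neighbour. Some of them thus lie near an end themselves, and the sets are not alike in this.

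The number of neighbours with a positive difference of 1 or more was 6 of 30 for those that lie head to head with a higher member, 14 of 69 on the same strand and 5 of 28 tail to tail. No orientation is singled out, and the difference between orientations was not tested. Of the 23 neighbours of lower members, 8 (34.8%) rose and 7 (30.4%) fell. Over all probe sets limma called 39.5% higher and 20% lower. After array centring 6 (26.1%) rose and 12 (52.2%) fell, where 27.0% of all probe sets rose and 33.4% fell. The share of falls thus lay above that of all probe sets both times, and the share of rises lay below. Neither difference in share was tested.

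The neighbours named next were chosen after their values were seen. Both neighbours had a difference of 1 or more for 5 higher members. YLL056C lies between JLP1, a dioxygenase gene of sulfonate use, and YCT1, a cysteine transporter gene, which starts head to head with it. YCT1 rose to 11.65 ± 0.11 in the deletion strain, against 9.37 ± 0.19 in wild type (SD, n = 3 each), 4.86-fold (limma adjusted p = 1.5e-05). JLP1 rose 3.44-fold (limma adjusted p = 1.6e-05). YKL162C, itself 2.09-fold higher, lies between PIR3, a cell wall protein gene, and KDX1, which encodes a protein kinase homolog. PIR3 rose 14.7-fold (limma adjusted p = 1.7e-06) and KDX1 3.32-fold (limma adjusted p = 5.3e-06). YER053C-A lies between PIC2, a mitochondrial carrier gene, and GIP2, whose product binds a protein phosphatase. These rose 2.13-fold and 2.36-fold, where YER053C-A itself was 13.5-fold higher. The other members of this kind were YOR338W, beside TEA1 and UBC11, and YGL262W, beside COS12 and YPS5. Between YGL262W and YPS5 the RefSeq table holds 2 further genes, and YPS5 is also a neighbour of YGL258W-A.

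The largest rise among the neighbours was that of ARO9, an aromatic aminotransferase gene tail to tail with YHR138C. ARO9 rose to 11.75 ± 0.13 in the deletion strain, against 6.05 ± 0.16 in wild type (SD, n = 3 each), where it lay under background. That is at least 39.7-fold (limma adjusted p = 5.6e-07), while YHR138C itself was 2.52-fold higher. SFC1, a mitochondrial carrier gene on the strand of YJR096W, was also under background in wild type and at least 5.02-fold higher (limma adjusted p = 4.9e-06).

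YJR079W overlaps 2 genes that have a probe set. It overlaps BNA2, the tryptophan dioxygenase gene of NAD synthesis, by 17 bases on the same strand, and AIM24 by 808 bases on the opposite strand. YJR079W read 10.13, 10.04 and 9.91 in the deletion arrays and 7.20, 7.13 and 7.24 in the wild-type arrays, 7.15-fold higher. BNA2 rose to 11.60 ± 0.12 in the deletion strain, against 8.43 ± 0.17 in wild type (SD, n = 3 each), 9.03-fold (limma adjusted p = 4.8e-06), and AIM24 rose 1.56-fold (limma adjusted p = 6.6e-05). How much of the YJR079W signal comes from transcripts of either neighbour was not tested. YJL107C, 2.97-fold higher, overlaps PRM10 by 4 bases on the same strand, and PRM10 rose 2.81-fold. Including YBL005W-A, which lies within a longer Ty1 reading frame, 5 of the 81 members overlap another gene of the table.

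Of the 30 head-to-head neighbours of higher members, 15 rose and 2 fell, and of the 3 of lower members 2 rose and 1 fell, where limma called 59.5% of all probe sets in either direction. The largest rises among them, besides YCT1, included ECM4, a glutathione transferase gene beside YKR075C (2.58-fold, limma adjusted p = 6.6e-06), SAM3, a permease gene of S-adenosylmethionine beside YPL277C (2.75-fold), and ATP14, an ATP synthase subunit gene beside YLR297W (2.32-fold). FDH1, a formate dehydrogenase gene beside YOR389W, and SPS22, a spore wall gene beside YCL049C, were under background in wild type. Their rises came to at least 1.51-fold and at least 3.05-fold. For SAM3, ATP14 and SPS22 the RefSeq table holds further genes in between. RLM1, a cell wall factor beside YPL088W, rose 1.84-fold. Some higher members had neighbours that fell. YBR085C-A lies tail to tail with AAC3, an ADP/ATP carrier gene, which fell to 9.52 ± 0.14 in the deletion strain, against 10.43 ± 0.07 in wild type (SD, n = 3 each; limma adjusted p = 2.2e-04). The fluoride exporter genes FEX1 and FEX2, beside YOR389W and YPL278C, fell by 0.75 and 0.64 (limma adjusted p = 1.7e-04 and 0.0011), although the FEX1 probe set matches several transcripts.

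Next to the lower members, HOF1, a cytokinesis gene on the strand of YMR030W-A, fell to 9.63 ± 0.07 in the deletion strain, against 10.71 ± 0.06 in wild type (SD, n = 3 each), a difference of -1.09 (limma adjusted p = 2.2e-05). CDC5, the polo kinase gene on the strand of YMR001C-A, fell by 0.78 (limma adjusted p = 7.7e-05). RPS10B, the ribosomal protein gene beside YMR230W-A, differed by -0.21 (limma adjusted p = 0.23), where YMR230W-A itself differed by -3.25. UBX6, on the strand of YJL047C-A, rose 1.94-fold (limma adjusted p = 3.7e-04). Neighbours of lower members thus moved in both directions. The share that fell, 7 of 23, was larger than the 20% of all probe sets, a difference that was not tested. HOF1 and ARP9, which both fell, were the neighbours of the same member, YMR030W-A.

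**Figure D5:**
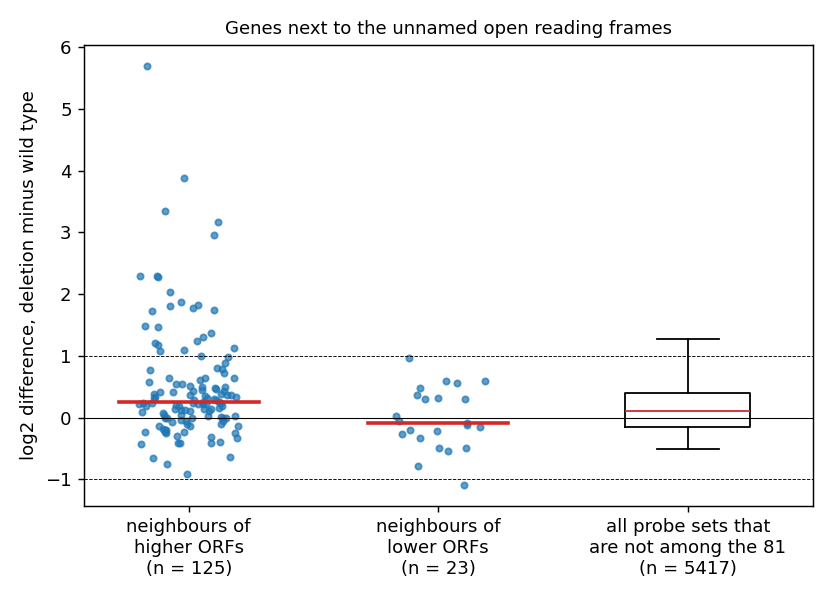
Difference of mean log2 intensity, deletion minus wild type, for the 125 neighbours of higher members, the 23 neighbours of lower members (1 point per gene, red line at the median) and the 5417 probe sets that are not members, neighbours included (box from the 25th to the 75th percentile, whiskers from the 5th to the 95th). Medians are 0.25, -0.09 and 0.11, and dashed lines mark a difference of 1 in either direction.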

How the data were processed

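Per the submitters' processing notes, the authors used R 2.8.0, affy and RMA, which corrects background, normalizes between arrays and summarises probes. The authors deposited intensities, which are not logged. RMA makes no presence calls, and its background step narrows differences among dim genes. No source used here gives the annotation's genome build. RefSeq (assembly R64) served for names, gene order, overlaps and annotated lengths, so no coordinates are printed, and all 81 members matched it. Here log2 was taken, and limma 3.58.1 in R 4.3.3 compared the strains over 5498 probe sets (group as the only term, Benjamini-Hochberg adjustment, threshold 0.05). A gene with several probe sets was represented as a neighbour by the one with the highest mean. The limma step was tested on simulated data. Promoter and protein sequences were not analysed here. The members, lists and rules were chosen with earlier results of these data known. The text names the 25 largest positive differences, all negative ones, the members nearest the thresholds, adjacent members, members read by probe sets that match several transcripts, and the called head-to-head neighbours with the largest rises, a choice made by value. Alternatives were other scalings, filters, thresholds and blocks, and leaving out each replicate. No arrays were identical.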

Additional observations from a re-analysis of the deposited data

How the results depend on the processing

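Of 81 members, none turned its direction under array centring, quantile normalization, cyclic loess, either set of arrays split by poly-A spike level, or with any array left out, which the rule itself favours. Quantile normalization left 32 higher and made 46 lower members, and cyclic loess 19 lower ones. A difference of 1.5 or more left 28 and 4, by construction. Over all probe sets, array centring called 1835 lower, and quantile normalization 1369 higher and 1945 lower. The low-spike arrays alone called 1112 and 499, the high-spike arrays alone 620 lower, each from 2 arrays against 1, whose spread is taken from the other strain. A threshold of 0.01 left 691 lower. Neighbours of higher members numbered 47 higher and 30 lower after quantile normalization, 42 and 9 in the low-spike arrays, 9 lower in the high-spike arrays and 10 lower at 0.01. Neighbours of lower members numbered 12 lower after centring, 5 higher after quantile normalization, 4 higher in the low-spike arrays and 4 lower in the high-spike arrays. With 1 array left out, 62 to 69 neighbours of higher members rose. The subset away from chromosome ends was chosen after seeing the data.

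Deviations of same-numbered samples correlated at 0.44, -0.51 and -0.44, so no common pairing by number was seen. Those of differently numbered samples ran from -0.53 to 0.75. Deviations within a strain are tied to each other, so these correlations cannot exclude a weaker pairing. The highest was between deletion replicate 2 and wild-type replicate 3, both high-spike arrays, and its source was not tested. With a replicate block, 68 neighbours of higher members rose and 17 fell, and 7 of each did among neighbours of lower members.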
